A study of Mus musculus with 8 samples.

Results

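RNA was compared at 8 and at 0 min after DRB washout in mouse embryonic stem cells that carry conditional alleles of Ythdc1 and had been kept with 4-hydroxytamoxifen (4OHT). Of the 8 libraries of the table, the 4 with 4OHT were taken by their column names, 2 at 0 min and 2 at 8 min. Of 38911 rows that are not spike-ins (genes, repeat types and structural RNAs), 20269 had a value of 10 or more in at least 2 of these libraries and were tested. The cells were male, of a 129 background, and grown without feeders in serum and leukaemia inhibitory factor. Both groups had the same conditional Ythdc1 alleles and received 1 μg/ml 4OHT during 4 days, then 100 μM DRB during 3 h. They differed in the time given to 1 mM 4-thiouridine (4sU) after DRB was removed, 0 or 8 min. The other 4 libraries, with DMSO in place of 4OHT, had the same alleles, DRB and labelling times. The labels do not name the Cre driver or the deleted part of the gene. Labelling for 4 min, which the protocol also names, was not analysed here.

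DRB blocks CDK9, the kinase of P-TEFb that lets RNA polymerase II leave its pause near the start of a gene. When DRB is removed, polymerases enter gene bodies together, so RNA made in the next minutes comes mainly from the 5′ parts of genes. The uridine analogue 4sU is built into RNA under synthesis, linked to biotin and caught on streptavidin. A label of 0 min leaves no time for incorporation, and the labels do not say what RNA the 0 min libraries hold. Ythdc1, the gene with the conditional alleles, encodes a nuclear protein that binds N6-methyladenosine (m6A) in RNA.

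The sample titles place 1 embryonic stem cell number at 0 min and another at 8 min, while the table's columns give both numbers at both times. Line and time may therefore differ together and cannot be told apart here. The libraries held 58.3 M and 57.6 M reads (M, 10 to the power 6) at 0 min and 118 M and 134 M at 8 min. At 8 min the libraries with 4OHT were alike (correlation of log2 values 0.9916), whereas those at 0 min were less so (0.9214). Over rows with at least 2000 reads in the pair and under 50000 in each library, the standard deviation of the log2 ratio was 0.7623 between the 2 libraries at 0 min with 4OHT, and 0.1684 and 0.3295 between 4OHT and DMSO libraries of the same column number. At 0 min the libraries thus went together by number rather than by treatment. At 8 min they went by treatment, with 0.1874 within 4OHT and 0.4602 to 0.5009 between 4OHT and DMSO.

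Ythdc1 itself had normalised read counts of 276 and 476 at 0 min and 1135 and 1369 at 8 min with 4OHT, on a scale set over all 8 libraries. With DMSO it had 283 and 325 at 0 min and 1622 and 2028 at 8 min. The deleted part of the gene is not given in the sources used here, so a count over the whole gene does not check the labels. The 8 embryonic stem cell markers were all above 0 in the 4 libraries with 4OHT, with values from 75.2 to 4827. Their summed count was lower at 8 min too, with 10385 and 9437.6 at 0 min and 4250.5 and 4283.2 at 8 min. Of 15 fibroblast and feeder markers 8 were tested (1 higher, 5 lower at 8 min), of 14 trophoblast markers 7 (0 and 4) and of 15 primitive endoderm markers 11 (1 and 4). The summed count of the fibroblast and feeder markers was 1399 and 1434 at 0 min and 840 and 842 at 8 min, with Lum under 1 in every library. For trophoblast markers the sums were 625 and 353 at 0 min and 119 and 137 at 8 min. For primitive endoderm markers they were 1485 and 1560, then 1072 and 1007, with Foxa2 at 0 throughout and Sox7 under 1. The part of such cells in the results was not tested, and in bulk libraries fewer cells of a type and less RNA per cell cannot be told apart.

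After release, 6748 rows were higher and 4651 lower at 8 than at 0 min, of 20269 rows tested (limma on log2 of the normalised read count plus 1, Benjamini-Hochberg adjusted p under 0.05). These were 33.3% and 22.9% of all rows tested, 56.2% together, so a call alone is common here and the counts below are read against those shares. The median change over all tested rows was 0.29 on the log2 scale. In every called row both libraries of one time lay above both of the other, a separation that 47.4% of all rows showed with 8 min above and 35.4% with 8 min below. A lack of overlap given below for a called gene is thus shared by all called rows and adds nothing to its call. A change of 4-fold or more was found in 3158 of the higher and 1636 of the lower rows, and 353 rose by 16-fold or more. Without 8 min library 1 the counts were 2469 higher and 1656 lower, and without 8 min library 2 they were 2689 and 2032. Without 0 min library 1 they were 9395 and 5524, and without 0 min library 2 they were 9687 and 5605. Calls that held in each of these 4 fits numbered 2341 higher and 1002 lower, where 5434 and 3302 of the called rows stayed above the filter on low values.

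A rise or a fall here is relative to the other RNAs of the library. On the deposited scale, without median-ratio rescaling, the median row was 2.45 higher at 8 min on the log2 scale and 13630 rows were called higher and 140 lower. Scaled by spike-in reads, the median was 3.14, with 7052 higher and 28 lower. The spike-in reads numbered 59088 and 385228 at 0 min and 48836 and 51734 at 8 min, so the 0 min libraries differed widely in them. The median moved by 2.16 or 2.85 on those scales, so that smaller falls generally appear there as rises. Of the 16 gene or repeat lists below with a median under 0, 13 had a median above 0 on the deposited scale and all 16 did on the spike-in scale. In the other direction, other methods on the recovered reads balanced the calls, with 5299 higher (26.1%) and 5561 lower (27.4%) by edgeR and 5756 (28.4%) and 6105 (30.1%) by DESeq2. Quantile normalisation gave 5517 and 5711. Of the 225 rows chosen by the naming rule, edgeR lost the call of 12 and DESeq2 that of 12, among them Ldhb and H2afv in both and Idi1 and H3f3b in edgeR.

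**Figure D1:**
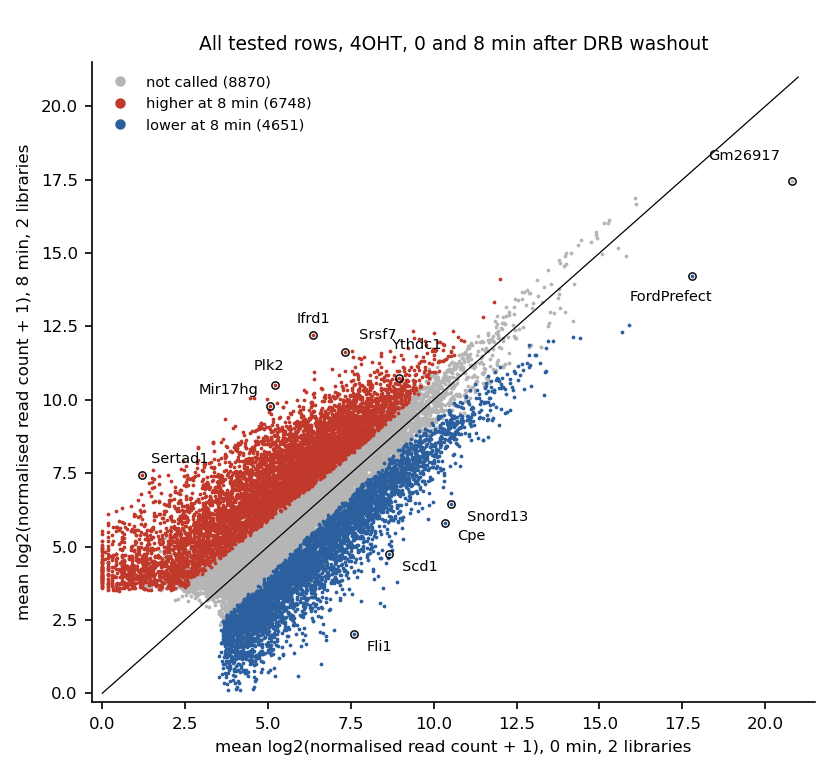
Each point is 1 of 20269 tested rows, placed by its mean log2(normalised read count + 1) at 0 min (x) and at 8 min (y), 2 libraries each, with 4OHT. Rows called higher (6748) lie above the diagonal of equal values and rows called lower (4651) below it, and the row of highest count at 0 min, Gm26917, lies below the diagonal, where limma did not call it and edgeR and DESeq2 did.

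The makeup of the libraries changed between the times. Rows of protein-coding genes took 33.3% and 37.5% of reads at 0 min and 54.5% and 55.0% at 8 min. The single row Gm26917, a gene model, took 27.1% and 23.4% at 0 min and 3.26% and 2.67% at 8 min. The repeat type FordPrefect took 3.30% and 2.99%, then 0.354% and 0.283%. In both rows the 0 min libraries were high and the 8 min libraries low, with no overlap. The log2 change of Gm26917, -3.35 ± 1.94 (SE), was not called in the fit of all 4 libraries (limma adjusted p = 0.19) or without either 8 min library (limma adjusted p = 0.77 and 0.80). It was called lower without either 0 min library (limma adjusted p = 3.9e-19 and 2.3e-19), by edgeR (adjusted p = 0.012) and by DESeq2 (log2 change -3.60, adjusted p = 1.8e-32). The change of FordPrefect was -3.57 (adjusted p = 0.011). The call was lost for FordPrefect with each 8 min library left out in turn (adjusted p from 0.36 to 0.43). Short interspersed repeats of the B families took 7.09% and 8.75% of reads at 0 min and 14.2% and 13.8% at 8 min, yet limma called none of their 20 types, while DESeq2 called B2_Mm1a lower (log2 change -1.28, adjusted p = 0.004), and the median change of these types was 0.82.

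Shares of higher and lower calls varied with the class of RNA. Of 13726 protein-coding genes tested, 5132 were called higher (37.4%) and 2371 lower (17.3%), with a median of 0.49. Of 1515 pseudogenes, 55 were higher and 1022 lower, with a median of -1.51, and their reads fell from 9.52% and 5.10% of the library at 0 min to 2.51% and 2.72% at 8 min. Of 94 small nucleolar RNA (snoRNA) rows by annotation, 49 were higher and 6 lower. Of 41 structural RNA types of the repeat annotation, 4 were higher (9.76%) and 17 lower (41.5%). Of 47 small nuclear RNA (snRNA) rows, 2 were higher and 40 lower, with a median of -2.86. Long noncoding RNAs (lncRNAs) were mixed, 439 higher (36.9%) and 321 lower (27.0%) of 1189, near the 33.3% and 22.9% of all rows. Rows that share sequence with others, such as pseudogenes, histones and repeats, are uncertain, since how the authors counted reads of several places is not given in the sources used here.

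The 12 genes of largest rise were led by transcripts nearly absent at 0 min. Sertad1, a transcriptional coregulator of the SERTA family, had normalised read counts of 3.28 and 0.25 at 0 min and 186 and 159 at 8 min, the 0 min values standing for 26 and 2 reads. It rose (log2 change 6.22 ± 0.63 (SE), adjusted p = 0.002). Ifrd1, a coregulator linked to growth and differentiation, had 71.9 and 92.7 at 0 min and 4592 and 4813 at 8 min. The change was 56.9-fold (log2 change 5.83 ± 0.24 (SE), adjusted p = 0.0018). Eny2, a subunit shared by the SAGA deubiquitinase module and the TREX-2 export complex, had 8.07 and 17.5 at 0 min and 583 and 714 at 8 min (log2 change 5.64 ± 0.40 (SE), adjusted p = 0.0018). Both 8 min libraries lay far above both 0 min libraries for all 3 genes.

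Plk2, a polo-like kinase and p53 target, had 20.7 and 61.5 at 0 min and 1565 and 1379 at 8 min (log2 change 5.32 ± 0.50 (SE), adjusted p = 0.0019). Rnpc3, a protein of the minor spliceosome, had 21.4 and 24.7 at 0 min and 869 and 1334 at 8 min (log2 change 5.49 ± 0.30 (SE), adjusted p = 0.0018). Pdhx, a component of the pyruvate dehydrogenase complex, had 26.7 and 16.2 at 0 min and 1013 and 1129 at 8 min (log2 change 5.61 ± 0.31 (SE), adjusted p = 0.0018). The 8 min libraries were the high ones in each, with no overlap. Mpc2, a subunit of the mitochondrial pyruvate carrier, had 7.57 and 0.25 at 0 min and 177 and 161 at 8 min (log2 change 5.70 ± 0.89 (SE), adjusted p = 0.0049). Tatdn3 had 1.51 and 1 at 0 min and 114 and 104 at 8 min (log2 change 5.61 ± 0.36 (SE), adjusted p = 0.0018). Rad51ap2, Rnaset2a, Marc2 and Zfp40 rose by 5.44 to 5.78 on the log2 scale, each from at most 11.6 at 0 min to over 100 in both libraries at 8 min. These 12 genes were called in each fit that tested them with a library left out, but DESeq2 did not call Marc2 (adjusted p = 0.1). With 8 min library 1 or 2 left out, 6 of them (Sertad1, Rad51ap2, Mpc2, Tatdn3, Rnaset2a and Marc2) fell under the filter and were not tested. With DMSO the same 12 changes, on the scale of all 8 libraries, ran from 2.94 (Marc2) to 6.5 (Plk2).

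The 12 genes of largest fall included genes best known from other tissues. Fli1, an ETS factor of blood and endothelium, had 170.2 and 214 at 0 min and 3.08 and 2.98 at 8 min (log2 change -5.57 ± 0.33 (SE), adjusted p = 0.0018). Gys2, the liver form of glycogen synthase, had 184 and 274 at 0 min and 5.96 and 10.1 at 8 min (log2 change -4.68 ± 0.39 (SE), adjusted p = 0.0018). Adipoq, which encodes the fat hormone adiponectin, had 84.5 and 121 at 0 min and 5.24 and 3.16 at 8 min (log2 change -4.32 ± 0.40 (SE), adjusted p = 0.0019). All 3 were high at 0 min and near the bottom of the scale at 8 min, with no overlap. Cpe, which encodes carboxypeptidase E of peptide hormone processing, was the most abundant protein-coding gene of the 12, with 1010 and 1644 at 0 min and 59 and 51.2 at 8 min (log2 change -4.53 ± 0.30 (SE), adjusted p = 0.0018). The stearoyl-CoA desaturases Scd1 and Scd4, enzymes that make monounsaturated fatty acids, both fell. Scd1 had 545 and 296 at 0 min and 24.3 and 27 at 8 min (log2 change -3.92 ± 0.36 (SE), adjusted p = 0.0018), and Scd4 had 86 and 131 at 0 min and 2.16 and 2.89 at 8 min (log2 change -4.94 ± 0.39 (SE), adjusted p = 0.0018). Spatc1l, Dcdc2c, Mamdc2, Slc7a14 and Trpm6 had log2 changes of -4.84 (Spatc1l) to -3.92 (Trpm6). Snord13, an independently transcribed snoRNA, fell from 2854 and 748 to 69.2 and 106. None of the 12 lost its call when a library was left out, but Fli1, Scd4, Spatc1l and Adipoq fell under the filter without either 0 min library. All 12 stayed below 0 on the deposited scale, from -3.57 (Fli1) to -1.73 (Scd1), and with spike-in scaling, where Fli1 had -2.88, Trpm6 -1.05 and Slc7a14 -1.02. On the scale of all 8 libraries the 12 changes ran from -5.47 (Fli1) to -3.89 (Trpm6) with 4OHT and from -3.72 (Spatc1l) to -0.67 (Scd1) with DMSO. Fli1 had -2.42 and Gys2 -1.82 with DMSO. The 12 were chosen by their change with 4OHT, so the choice itself favours larger falls with 4OHT. None of them was called for the difference between treatments (limma adjusted p from 0.40 for Scd1 to 0.95 for Trpm6).

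**Figure D2:**
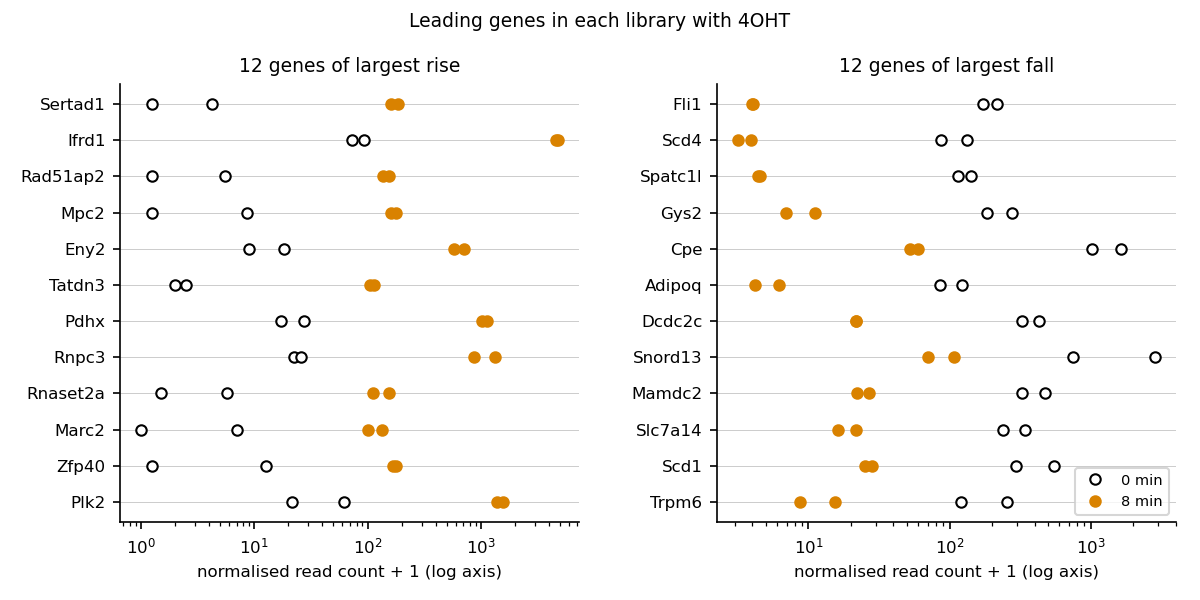
Normalised read count plus 1 (log axis) of the 12 genes of largest rise (left) and fall (right) in each of the 2 libraries at 0 min (open) and at 8 min (filled), with 4OHT. The 24 genes were chosen among rows whose times do not overlap, and Ifrd1 reaches the highest value at 8 min, 4592 and 4813.

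The reach of release along genes was described by gene length, from annotated start to end. Over 13726 protein-coding genes, the median log2 change was 0.50 under 10 kb, 0.84 from 10 to 30 kb, 0.53 from 30 to 100 kb and -0.15 above 100 kb. Of 4472 genes from 10 to 30 kb, 2090 were higher (46.7%) and 620 lower (13.9%). Of 2264 genes above 100 kb, 432 were higher (19.1%) and 598 lower (26.4%). In finer classes the highest median, 0.89, was that of 10 to 20 kb, and the median fell to -0.43 above 400 kb. The shortest genes, under 2 kb, had a median of -0.72, with 50 of 320 higher and 115 lower. Of 69 replication-dependent histone genes 61 lie in that length range, and of 82 ribosomal protein genes 14 do. Among genes in the highest of 3 equal classes of mean level the highest median was again that of 10 to 30 kb and the lowest that above 100 kb, with medians of 0.24, 1.28, 0.86 and -0.14 from the shortest to the longest of the 4 main classes. In the lowest class the order differed, with 0.46, 0.10, -0.20 and -0.15. With DMSO the 4 main medians, on the scale of all 8 libraries, were 0.46, 0.76, 0.34 and -0.26. Without 0 min library 2, the median under 10 kb lay 0.10 below that of all rows rather than 0.21 above it. Genes are not replicates, so no test was made across them.

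**Figure D3:**
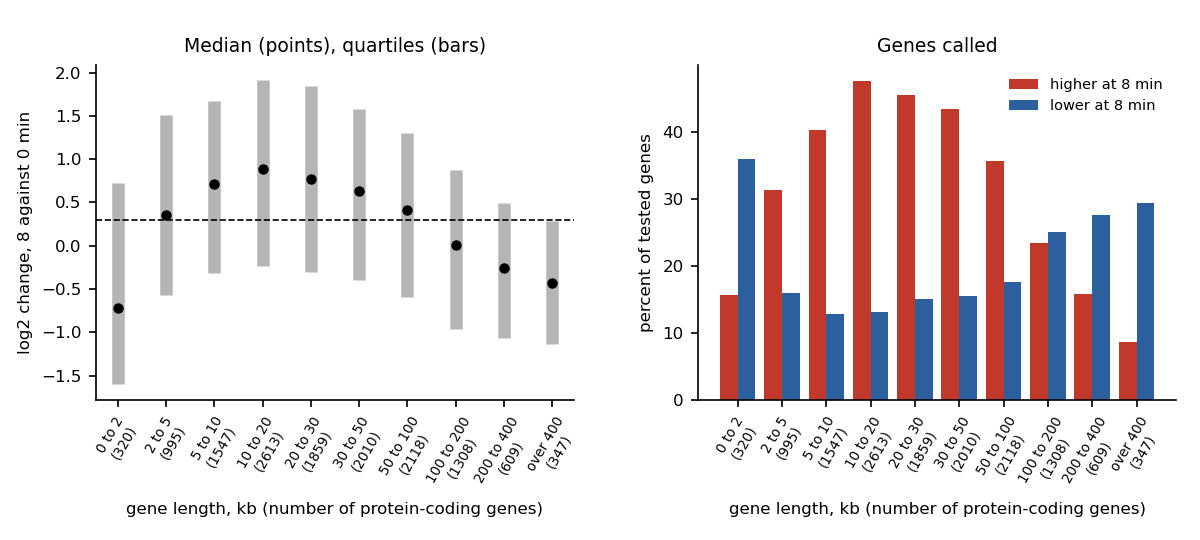
Left, the median log2 change from 0 to 8 min (points) and its quartiles (bars) for protein-coding genes in 10 classes of gene length, with the median of all rows, 0.29, as a dashed line. Right, the percent of genes called higher and lower in each class, where the higher calls peak at 47.6% from 10 to 20 kb.

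Promoter letters are shown for a few of the genes described here, risers beside genes that fell. Each stretch shown holds letters that were searched for, so the stretches do not show how common those letters are. Stretches of 90 bases that end just before the start of the gene are given from RefSeq (GRCm38.p6), 5′ to 3′ on the strand of the gene, with the searched letters in capitals. In all, 5 strings of letters were searched for. The stretches of Plk2 and Clk4 hold TGACGTCA, the cyclic AMP response element bound by CREB and ATF proteins. Those of Rfc3, Taf1a and Rpl41 hold CCGGAAG or its reverse complement, the core bound by ETS factors. Those of Btg1, Fos and Hist2h2ac hold TATAAA, the TATA box. Fos was chosen after its values were seen. Rpl41 and Hist2h2ac fell and the other 6 rose.
Plk2 (chr13:110394954-110395043, + strand): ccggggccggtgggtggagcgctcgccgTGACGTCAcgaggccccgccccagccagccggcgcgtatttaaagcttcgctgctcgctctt
Clk4 (chr11:51263024-51263113, + strand): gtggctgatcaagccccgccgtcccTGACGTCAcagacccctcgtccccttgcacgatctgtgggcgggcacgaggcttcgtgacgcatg
Rfc3 (chr5:151651209-151651298, - strand): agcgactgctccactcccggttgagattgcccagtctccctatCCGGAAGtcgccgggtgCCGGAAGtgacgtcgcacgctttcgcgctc
Taf1a (chr1:183388795-183388884, + strand): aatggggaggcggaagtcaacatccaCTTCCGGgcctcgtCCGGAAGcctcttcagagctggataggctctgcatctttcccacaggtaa
Rpl41 (chr10:128549169-128549258, - strand): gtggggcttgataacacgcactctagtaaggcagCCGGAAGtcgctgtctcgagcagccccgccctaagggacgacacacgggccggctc
Btg1 (chr10:96616911-96617000, + strand): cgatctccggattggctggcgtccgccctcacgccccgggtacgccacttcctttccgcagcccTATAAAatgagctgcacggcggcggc
Fos (chr12:85473800-85473889, + strand): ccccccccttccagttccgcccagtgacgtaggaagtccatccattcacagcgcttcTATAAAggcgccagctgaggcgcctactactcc
Hist2h2ac (chr3:96220881-96220970, - strand): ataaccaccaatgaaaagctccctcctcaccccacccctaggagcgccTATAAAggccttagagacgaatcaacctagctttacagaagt
A promoter was matched for 11037 of 13726 tested protein-coding genes, and its 250 bases before the start were searched with no mismatch, on both strands except for the TATA box. The letters CCGGAAG were held by 16.5% of the promoters of genes called higher, 12.7% of those not called and 5.73% of those called lower, against 13% of all tested and 6.91% of all promoters of the table. Among genes in the highest of 3 classes of mean level the shares were 18.9%, 16.3% and 8.04%. TATAAA, taken 45 to 11 bases before the start on the gene's strand, was held by 1.33% of the higher, 0.921% of the uncalled and 2.89% of the lower group (1.4% of all tested, 2.22% of the table). TGACGTCA was held by 3.02%, 2.62% and 1.8% (2.64% of all tested, 1.55% of the table). The median number of CG pairs in these 250 bases was 17 in the higher, 15 in the uncalled and 10 in the lower group. Among genes in the highest class of mean level the shares were 1.6%, 0.649% and 1.65% for TATAAA and 3.37%, 3.82% and 2.89% for TGACGTCA, so for TGACGTCA the order of the 3 groups was not that of all genes. The shares describe letters, not binding.

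Immediate early genes are induced within minutes by signals, without new protein synthesis, and many encode transcription factors. Of 43 measured, 24 were called higher and 0 lower, with a median of 1.09. Beside Plk2, the largest changes were those of Nr4a2, Tob1 and Btg1. Nr4a2, an orphan nuclear receptor, had 1.51 and 0 at 0 min and 56.9 and 53.6 at 8 min (log2 change 5.15 ± 0.54 (SE), adjusted p = 0.002). Tob1, an antiproliferative protein of the BTG family, had 22.4 and 31.2 at 0 min and 635 and 544 at 8 min (log2 change 4.42 ± 0.28 (SE), adjusted p = 0.0018). Btg1, of the same family, had 63.8 and 228 at 0 min and 2225 and 1993 at 8 min (log2 change 4.11 ± 0.58 (SE), adjusted p = 0.0039). In each the 8 min libraries were the high ones and the times did not overlap. Fos, a subunit of AP-1, had 16.1 and 3.5 at 0 min and 57.9 and 71.5 at 8 min (log2 change 2.90 ± 0.66 (SE), adjusted p = 0.015). Egr1, Ier2, Junb and Zfp36, often the first named of this group, were not called and had log2 changes of -0.34, -0.35, -0.19 and -0.31 (these 4 and Fos were chosen after their values were seen). With each library left out in turn, 14 of the 24 calls held in all 4 fits.

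The Id, Hes and Sprouty genes and other feedback inhibitors of signalling gave 9 higher and 2 lower of 17, with a median of 1.30. Bambi, a decoy receptor of the TGF-β family, had 5.3 and 4.25 at 0 min and 218 and 206 at 8 min (log2 change 5.21 ± 0.32 (SE), adjusted p = 0.0018). Id4 had 17.5 and 5.5 at 0 min and 155 and 137 at 8 min and Id2 35.3 and 24.2 at 0 min and 242 and 211 at 8 min, inhibitors of basic helix-loop-helix factors that rose by 3.74 and 2.91 (adjusted p = 0.0041 and 0.002). Id3 rose by 1.93 (adjusted p = 0.006). Lefty2, a Nodal antagonist, went the other way, with 179 and 111 at 0 min and 41.8 and 42.7 at 8 min (log2 change -1.71 ± 0.33 (SE), adjusted p = 0.0088), and Smad7 fell by 1.20 (adjusted p = 0.038). Of the list's calls, 2 of 9 higher and 0 of 2 lower held in all 4 fits with a library left out. Calls did not hold for Id3 and Smad7 with each 8 min library left out in turn and for Lefty2 without 8 min library 1 only (adjusted p from 0.056 to 0.32).

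Genes of pausing and elongation, the step that DRB blocks, rose in 20 of 37 cases and fell in 1, with a median of 0.99. Parts of the 7SK particle, the store of inactive P-TEFb, were among them. Hexim1, which holds P-TEFb inactive in the 7SK particle, had 69.1 and 57.1 at 0 min and 795 and 682 at 8 min (log2 change 3.53 ± 0.24 (SE), adjusted p = 0.0018). Mepce, the enzyme that caps 7SK RNA, had 14.6 and 3.5 at 0 min and 79.9 and 76.3 at 8 min (log2 change 3.24 ± 0.62 (SE), adjusted p = 0.009). Both were low at 0 min and high at 8 min in each library. The 7SK RNA itself, Rn7sk, had 20245 and 7723 at 0 min and 3972 and 4315 at 8 min and fell (log2 change -1.59 ± 0.53 (SE), adjusted p = 0.046). Of the positive factors, Ell, a subunit of the super elongation complex, had 69.1 and 74.7 at 0 min and 402 and 338 at 8 min and rose by 2.34 (adjusted p = 0.002). Ctr9, of the PAF1 complex, had 84 and 65.2 at 0 min and 368 and 349.9 at 8 min and rose by 2.26 (adjusted p = 0.0022). Cdk9, the target of DRB, and Polr2a, the largest subunit of the polymerase, were not called, with log2 changes of 0.29 and -0.05 (both chosen after their values were seen). Aff1, a 163 kb gene, was the 1 member that fell, by 0.90 (adjusted p = 0.028). Calls that held in all 4 fits with a library left out numbered 7 of the 20 higher ones. The threshold was missed for Rn7sk and Aff1 with each 8 min library left out in turn (adjusted p from 0.3 to 0.35).

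Genes of the m6A pathway, the writers, erasers and readers of the mark that Ythdc1 binds, gave 12 higher and 2 lower of 21, with a median of 1.13. The writers Mettl3 and Mettl14, which form the methyltransferase core, rose by 1.82 and 2.04. Mettl3 had 58 and 65 at 0 min and 210.2 and 229.9 at 8 min (adjusted p = 0.0034), and Mettl14 had 53.7 and 35.7 at 0 min and 179 and 188 at 8 min (adjusted p = 0.0043). The eraser Alkbh5 had 292 and 272 at 0 min and 1023 and 987 at 8 min and rose by 1.83 (adjusted p = 0.0025). Among readers, the cytoplasmic Ythdf3 had 254 and 244 at 0 min and 895 and 1122 at 8 min (log2 change 2.00 ± 0.23 (SE), adjusted p = 0.0025). Ythdc1, on the scale of the 4 libraries, had 381 and 638 at 0 min and 1564 and 1887 at 8 min (log2 change 1.8 ± 0.32 (SE), adjusted p = 0.0072). In all of these the 8 min libraries lay above. The stabilising readers Igf2bp2 and Igf2bp1 fell, by 2.17 and 1.17. Igf2bp2, a gene of 104 kb, had 367 and 241 at 0 min and 73.8 and 57.6 at 8 min (adjusted p = 0.0039), and Igf2bp1 had 1453 and 1420 at 0 min and 628 and 647 at 8 min (adjusted p = 0.0084). Significance was lost for Igf2bp1 with each 8 min library left out in turn and for Ythdc1 without 8 min library 2 only (adjusted p from 0.058 to 0.24). Of the pathway's calls, 4 of 12 higher and 1 of 2 lower held in all 4 fits with a library left out.

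Splicing, 3′ end and export factors gave 21 higher and 1 lower of 32, with a median of 1.30. Srsf7, an SR protein that also acts in export, had 189 and 132 at 0 min and 3124 and 3269 at 8 min (log2 change 4.33 ± 0.26 (SE), adjusted p = 0.0018). Tra2b, a splicing activator of the same class, had 476 and 909 at 0 min and 4831 and 5612 at 8 min (log2 change 2.98 ± 0.37 (SE), adjusted p = 0.0029). The kinases of SR proteins rose too, Clk4 with 25 and 39.5 at 0 min and 521 and 547 at 8 min (log2 change 4.04 ± 0.30 (SE), adjusted p = 0.0018) and Clk1 with 189 and 388 at 0 min and 1364 and 1364 at 8 min (log2 change 2.33 ± 0.37 (SE), adjusted p = 0.0054). The times did not overlap in any of these 4 genes, and the 8 min libraries were close to each other. Srrm2, a large scaffold of nuclear speckles, had 4396 and 3885 at 0 min and 2168 and 2317 at 8 min and fell (log2 change -0.88 ± 0.27 (SE), adjusted p = 0.037). The call was lost for Srrm2 with each 8 min library left out in turn (adjusted p from 0.46 to 0.53). In all 4 such fits 10 of 21 higher and 0 of 1 lower calls held.

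Transcripts of the stem cell state gave more lower than higher calls. Of 29 naive pluripotency genes, 2 were called higher (6.90%) and 8 lower (27.6%), with a median of -0.60. Among all rows 33.3% were higher and 22.9% lower, so only the higher share lay far from that of all rows. The median of this list was 1.62 on the deposited scale and 2.37 with spike-in scaling. Pou5f1, the core pluripotency factor Oct4, had 654 and 389 at 0 min and 171 and 172 at 8 min (log2 change -1.55 ± 0.31 (SE), adjusted p = 0.0097). Esrrb, an orphan receptor of the naive network and a gene of 161 kb, had 3395 and 4827 at 0 min and 1337 and 1364 at 8 min (log2 change -1.58 ± 0.29 (SE), adjusted p = 0.008). Dppa5a had 1394 and 484 at 0 min and 138 and 164 at 8 min (log2 change -2.44 ± 0.50 (SE), adjusted p = 0.011). Lin28a fell by 1.56 (adjusted p = 0.0045). All of these were high at 0 min and low at 8 min. Klf5 and Dppa2 were the members that rose, by 0.97 and 0.93 (adjusted p = 0.021 and 0.032), calls that edgeR did not make for either gene and DESeq2 not for Dppa2. Of 10 formative and neuroectoderm genes, 0 were called higher and 4 lower, namely Nes, Dnmt3b, Zic2 and Dnmt3a, by 1.75, 1.07, 1.04 and 0.88 on the log2 scale. Summed markers of fibroblasts, trophoblast and primitive endoderm, given above, also were lower at 8 min in both libraries. Of the naive calls 0 of 2 higher and 1 of 8 lower and of the formative calls 0 of 4 lower held in all 4 fits with a library left out. Calls did not hold for Pou5f1, Esrrb, Lin28a, Klf5, Dppa2, Dnmt3b, Zic2 and Dnmt3a with each 8 min library left out in turn and for Nes without 8 min library 1 only (adjusted p from 0.054 to 0.35). With DMSO the medians of the naive and formative lists were -0.44 and -0.70.

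Genes of stress responses were next, to be read beside the 33.3% of all rows that rose. Of 28 p53 targets, 21 were called higher and 1 lower, with a median of 1.5. Sesn2, a stress sensor that restrains mTORC1, had 104 and 101 at 0 min and 1166 and 1020 at 8 min (log2 change 3.39 ± 0.22 (SE), adjusted p = 0.0018). Eda2r, a receptor of the TNF family, had 158 and 292 at 0 min and 1370 and 1696 at 8 min (log2 change 2.82 ± 0.35 (SE), adjusted p = 0.0029). Fas, a death receptor, had 0 and 3.5 at 0 min and 64.1 and 63.3 at 8 min (log2 change 4.93 ± 0.74 (SE), adjusted p = 0.0044). The 8 min libraries were high and close in each, and the call of Fas was lost in DESeq2 (adjusted p = 0.075). Rrm2b, a ribonucleotide reductase subunit, was the 1 member that fell, by 1.18 (adjusted p = 0.03). Of 26 genes of the integrated stress response, 18 were called higher and 2 lower, with a median of 1.31. Ddit3, the factor CHOP, had 10.5 and 20.7 at 0 min and 224 and 198 at 8 min (log2 change 3.74 ± 0.39 (SE), adjusted p = 0.002), and Chac1, which degrades glutathione, had 2.77 and 5 at 0 min and 82.7 and 69 at 8 min (log2 change 4.01 ± 0.40 (SE), adjusted p = 0.0019). Slc1a4, a neutral amino acid transporter, had 61.2 and 60.5 at 0 min and 616 and 560 at 8 min (log2 change 3.25 ± 0.22 (SE), adjusted p = 0.0018). Shmt2 and Vldlr fell by 1.83 and 1.79 (adjusted p = 0.028 and 0.012). The threshold was missed for Rrm2b and Vldlr with each 8 min library left out in turn and for Shmt2 without 8 min library 1 only (adjusted p from 0.055 to 0.22). In all 4 fits with a library left out, 10 of 21 higher and 0 of 1 lower calls of p53 targets and 9 of 18 higher and 0 of 2 lower calls of the integrated stress response held.

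Heat shock genes were mixed, with 6 higher (33.3%) and 2 lower (11.1%) of 18, against 33.3% and 22.9% of all rows. Dnaja1, a co-chaperone of Hsp70, had 141 and 196 at 0 min and 1258 and 1348 at 8 min (log2 change 2.96 ± 0.26 (SE), adjusted p = 0.0018). Hsf1, the factor that drives the heat shock response, had 42.6 and 26.7 at 0 min and 199 and 177 at 8 min (log2 change 2.44 ± 0.32 (SE), adjusted p = 0.0033). Hspa1a, its inducible target, rose by 1.95 from 9.84 and 4.75 to 31.1 and 28.1, while the small heat shock genes Cryab and Hspb1 fell by 1.61 and 1.55 (adjusted p = 0.014, 0.016 and 0.011). Significance was lost for Cryab and Hspb1 with each 8 min library left out in turn (adjusted p from 0.054 to 0.24). Of the heat shock calls, 2 of 6 higher and 0 of 2 lower held in all 4 such fits.

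**Figure D4:**
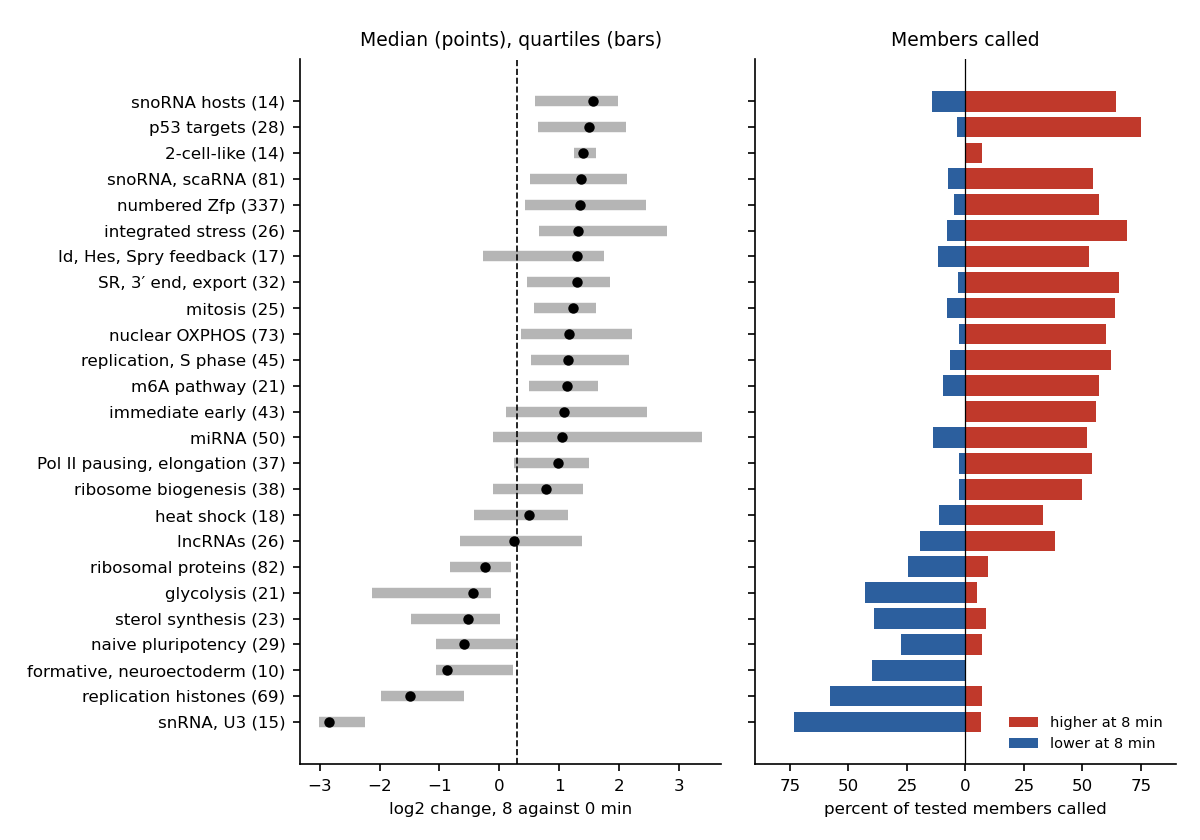
Left, the median log2 change (points) and quartiles (bars) of the tested members of 25 lists, with the number of members after the name and the median of all rows, 0.29, as a dashed line. Right, the percent of members called higher (to the right) and lower (to the left), from p53 targets with 75.0% higher to snRNA and U3 rows with 73.3% lower.

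Energy supply was described by its respiratory and its glycolytic genes. Of 73 nuclear genes of oxidative phosphorylation, 44 were called higher and 2 lower, with a median of 1.17. Ndufb4 and Ndufa5, subunits of complex I, rose by 4.62 and 4.40. Ndufb4 had 8.83 and 7.75 at 0 min and 221 and 232 at 8 min (adjusted p = 0.0018), and Ndufa5 had 17.3 and 10.6 at 0 min and 311 and 301 at 8 min (adjusted p = 0.0018). Sdhb, of complex II, had 14.4 and 4.25 at 0 min and 142 and 119 at 8 min (log2 change 3.86 ± 0.56 (SE), adjusted p = 0.0041). The 8 min libraries were high in all 3, with no overlap. Atp5d and Cox8a fell by 1.44 and 0.80 (adjusted p = 0.0088 and 0.043). Of 21 glycolysis genes, 1 was called higher and 9 lower, with a median of -0.44. Aldoa, the main aldolase, had 1268 and 552 at 0 min and 138 and 163 at 8 min (log2 change -2.47 ± 0.42 (SE), adjusted p = 0.0062). Tpi1, triosephosphate isomerase, had 807 and 278 at 0 min and 91.2 and 79.6 at 8 min (log2 change -2.46 ± 0.51 (SE), adjusted p = 0.011), and Aldoc had 87.5 and 57.5 at 0 min and 10.6 and 10.2 at 8 min (log2 change -2.66 ± 0.36 (SE), adjusted p = 0.0036). Here the 0 min libraries were the high ones, library 1 above library 2. Ldhb was the 1 riser, by 0.88 (adjusted p = 0.045). The call was lost for Atp5d, Cox8a and Ldhb with each 8 min library left out in turn (adjusted p from 0.09 to 0.39). Calls of oxidative phosphorylation that held in all 4 such fits were 23 of 44 higher and 0 of 2 lower, and those of glycolysis 0 of 1 higher and 7 of 9 lower.

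Cell cycle genes rose in 28 of 45 cases for replication and 16 of 25 for mitosis, and fell in 3 and 2. The medians were 1.15 and 1.24. Slbp, which binds the stem-loop of histone mRNAs, had 224 and 222 at 0 min and 2852 and 2482 at 8 min (log2 change 3.57 ± 0.22 (SE), adjusted p = 0.0018). Tyms, thymidylate synthase, had 38.8 and 35.5 at 0 min and 448 and 443 at 8 min (log2 change 3.55 ± 0.23 (SE), adjusted p = 0.0018). Pcna, the sliding clamp, had 84.5 and 66.2 at 0 min and 683 and 643 at 8 min (log2 change 3.13 ± 0.24 (SE), adjusted p = 0.0018). Rfc3, a subunit of the clamp loader, had 25.2 and 13 at 0 min and 198 and 214 at 8 min (log2 change 3.43 ± 0.38 (SE), adjusted p = 0.0023). All 4 were low at 0 min and high at 8 min in both libraries. Cdk1, the mitotic kinase, had 149 and 159.7 at 0 min and 959.8 and 825 at 8 min (log2 change 2.52 ± 0.22 (SE), adjusted p = 0.0018), and Pttg1, securin, had 23.2 and 4.5 at 0 min and 171 and 158 at 8 min (log2 change 3.84 ± 0.70 (SE), adjusted p = 0.0076). The proliferation marker Mki67 went the other way, with 2961 and 2550 at 0 min and 912 and 1061 at 8 min (log2 change -1.48 ± 0.25 (SE), adjusted p = 0.0064), as did Cenpf, Pold2, Uhrf1 and Gins2, by 0.69 to 1.61. Calls did not hold for Mki67, Cenpf, Pold2, Uhrf1 and Gins2 with each 8 min library left out in turn (adjusted p from 0.057 to 0.58). For replication 13 of 28 higher and 0 of 3 lower and for mitosis 6 of 16 higher and 0 of 2 lower calls held in all 4 such fits.

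Replication-dependent histone genes, whose mRNAs end in a stem-loop and have no poly(A) tail, fell in 40 of 69 cases and rose in 5, with a median of -1.5. Hist1h4n had 1600 and 721 at 0 min and 203 and 200.3 at 8 min (log2 change -2.41 ± 0.40 (SE), adjusted p = 0.0059), and Hist1h3a had 313 and 103 at 0 min and 26.6 and 36.1 at 8 min (log2 change -2.50 ± 0.55 (SE), adjusted p = 0.013). Hist2h2ac, whose promoter is printed above, had 233 and 95.2 at 0 min and 27.2 and 28.7 at 8 min (log2 change -2.37 ± 0.46 (SE), adjusted p = 0.0094). Library 1 was the higher at 0 min in each, and both 8 min libraries were below both. Hist1h2bc and Hist1h2be rose, by 2.01 and 2.09, from 636 and 390 to 1936 and 2096 and from 482 and 306 to 1572 and 1710 (adjusted p = 0.0046 and 0.0038). Their annotated spans of 8.28 and 37.5 kb are long for histone genes. Of 10 histone genes with polyadenylated mRNAs, 4 rose (H3f3a, H2afz, H3f3b and H2afv, by 0.92 to 1.81) and 2 fell (H2afx and H2afy, by 1.8 and 1.12). These shares, 40% and 20%, were near the 33.3% and 22.9% of all rows. The threshold was missed for H2afz, H3f3b, H2afv and H2afy with each 8 min library left out in turn and for H3f3a and H2afx without 8 min library 1 only (adjusted p from 0.052 to 0.35). Of the 40 falls, 26 held in all 4 fits with a library left out. On the deposited scale the median of the replication histones was 0.71 and on the spike-in scale 1.44.

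Ribosomal protein genes, short and highly expressed, gave 8 higher (9.76%) and 20 lower (24.4%) of 82 with a median of -0.25. Among all rows 33.3% were higher and 22.9% lower, so the lower share was near that of all rows. Rps12 had 197 and 201 at 0 min and 740.1 and 704 at 8 min (log2 change 1.85 ± 0.21 (SE), adjusted p = 0.0024), and Rpl41 had 3560 and 1194 at 0 min and 611 and 649.6 at 8 min (log2 change -1.71 ± 0.52 (SE), adjusted p = 0.035). Both rises and falls thus occurred in 1 family, without overlap between times in either gene. Ribosome biogenesis genes gave 19 higher and 1 lower of 38, among them Taf1b and Taf1a of the polymerase I factor SL1, by 3.23 and 2.13 (adjusted p = 0.0018 and 0.0039). Mybbp1a fell by 0.97 (adjusted p = 0.021). Significance was lost for Rpl41 and Mybbp1a with each 8 min library left out in turn (adjusted p from 0.069 to 0.33). In all 4 fits with a library left out, 1 of 8 higher and 0 of 20 lower calls of the ribosomal protein genes and 3 of 19 higher and 0 of 1 lower calls of the biogenesis genes held.

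Sterol synthesis genes fell in 9 of 23 cases and rose in 2, with a median of -0.51. Mvd, a mevalonate pathway enzyme, had 79.7 and 47.7 at 0 min and 14.6 and 11.5 at 8 min (log2 change -2.17 ± 0.39 (SE), adjusted p = 0.0076). Hsd17b7 and Idi1 rose by 1.22 and 1.13 (adjusted p = 0.019 and 0.023). The call was lost for Hsd17b7 and Idi1 with each 8 min library left out in turn (adjusted p from 0.15 to 0.31). Of all calls of the list, 0 of 2 higher and 3 of 9 lower ones held in all 4 fits with a library left out. On the scale of all 8 libraries the median of the list was -0.53 with 4OHT and 0.48 with DMSO.

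Numbered zinc finger genes, grouped by name, formed the largest list. They include KRAB factors, some of which silence retrotransposons, but neither the domain nor the function was used to choose them. Of 337, 193 were called higher and 16 lower, 57.3% and 4.75%, with a median of 1.34. Zfp40, Zfp825 and Zfp959 rose by 5.44, 4.59 and 4.52. Zfp825 had 4.29 and 7.75 at 0 min and 156 and 171 at 8 min (adjusted p = 0.0018), and Zfp959 had 3.78 and 6.62 at 0 min and 118 and 160.1 at 8 min (adjusted p = 0.0018). Zfp189 was at 0 in both 0 min libraries and at 29.2 and 28.6 at 8 min. Zfp974 and Zfp710 fell, Zfp974 with 77.8 and 86 at 0 min and 8.93 and 11.5 at 8 min (log2 change -2.90 ± 0.33 (SE), adjusted p = 0.0024) and Zfp710 with 552 and 502 at 0 min and 141 and 129 at 8 min (log2 change -1.96 ± 0.22 (SE), adjusted p = 0.0023). Higher calls that held in all 4 fits with a library left out numbered 96.

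Many snoRNAs are cut from introns of host transcripts. Among snoRNA host genes, 9 of 14 rose and 2 fell. Snhg8 had 26.5 and 13 at 0 min and 354 and 387 at 8 min (log2 change 4.24 ± 0.38 (SE), adjusted p = 0.0018), Snhg5 had 29.6 and 41.9 at 0 min and 337 and 318 at 8 min (log2 change 3.18 ± 0.28 (SE), adjusted p = 0.0018) and Gas5 had 256 and 281 at 0 min and 1471 and 1306 at 8 min (log2 change 2.37 ± 0.22 (SE), adjusted p = 0.0019). Snhg14, a host of 1177 kb, had 2296 and 3046 at 0 min and 722 and 796 at 8 min and fell (log2 change -1.8 ± 0.26 (SE), adjusted p = 0.0042). The box C/D and H/ACA snoRNA and scaRNA rows gave 44 higher and 6 lower of 81, with a median of 1.37. Snora24 had 5.8 and 0.25 at 0 min and 88.3 and 93.7 at 8 min (log2 change 4.98 ± 0.80 (SE), adjusted p = 0.0054), and Snord57 was at 0 in both 0 min libraries and at 17.1 and 13.4 at 8 min. Reads on such a row cannot be told from reads of the host intron. The lower ones were led by snoRNAs with promoters of their own, Snord13 and Snord118 (U8). Snord118 had 596 and 298 at 0 min and 28.4 and 34.3 at 8 min (log2 change -3.71 ± 0.39 (SE), adjusted p = 0.002), and Snord13 fell by 4.08 (adjusted p = 0.005). Only 5 of the 44 higher calls held in all 4 fits with a library left out. Calls did not hold for Snhg14 with each 8 min library left out in turn (adjusted p from 0.062 to 0.098).

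Small RNAs with genes of their own gave mostly lower calls. Of 15 rows of spliceosomal snRNAs, U3, U7 and Rnu73b, 1 was called higher and 11 lower, with a median of -2.85. The higher one was Rnu73b, the U73b snoRNA, whose call was lost in edgeR and DESeq2 (adjusted p = 0.11 and 0.25). Rnu12, of the minor spliceosome, had 594 and 152 at 0 min and 33.1 and 30.4 at 8 min (log2 change -3.21 ± 0.63 (SE), adjusted p = 0.0095). Rnu3b2, a copy of the U3 snoRNA that guides cleavage of ribosomal RNA precursors, had 754 and 363 at 0 min and 54.2 and 65.1 at 8 min (log2 change -3.12 ± 0.39 (SE), adjusted p = 0.0029). In both, 0 min library 1 was the highest and the 8 min libraries the lowest. Of 5 polymerase III transcripts, 0 were called higher and 4 lower. Rpph1, the RNA of RNase P, had 1758 and 1178 at 0 min and 202 and 221 at 8 min (log2 change -2.76 ± 0.28 (SE), adjusted p = 0.0019), and Rn7s1, the RNA of the signal recognition particle, had 15091 and 7648 at 0 min and 1902 and 2136 at 8 min (log2 change -2.41 ± 0.42 (SE), adjusted p = 0.0065). Rmrp, the RNA of RNase MRP, was not called (log2 change -0.70, adjusted p = 0.16). On the spike-in scale the median of the snRNA rows was 0.08 and that of the polymerase III rows 0.57, so these falls are relative to the other RNAs of the libraries. Of the snRNA calls 0 of 1 higher and 8 of 11 lower and of the polymerase III calls 1 of 4 lower held in all 4 fits with a library left out. The threshold was missed for Rn7s1 with each 8 min library left out in turn (adjusted p from 0.068 to 0.1).

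The miR-17 to miR-92 cluster rose together with its host transcript, and its mature sequences are shown since the members share seeds. The sequences are from RefSeq (GRCm38.p6), 5′ to 3′, with the seed, bases 2 to 8, in capitals.
mmu-miR-17-5p (chr14:115043684-115043706, + strand): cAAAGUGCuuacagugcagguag
mmu-miR-20a-5p (chr14:115044183-115044205, + strand): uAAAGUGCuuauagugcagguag
mmu-miR-18a-5p (chr14:115043867-115043889, + strand): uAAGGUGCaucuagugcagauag
mmu-miR-19a-3p (chr14:115044048-115044070, + strand): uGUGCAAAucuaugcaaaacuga
mmu-miR-19b-3p (chr14:115044358-115044380, + strand): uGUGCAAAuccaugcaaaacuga
mmu-miR-92a-3p (chr14:115044476-115044496, + strand): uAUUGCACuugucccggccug
miR-17 and miR-20a share 1 seed, miR-19a and miR-19b another, and miR-18a and miR-92a each have their own. The host Mir17hg (chr14:115044390-115046728, lncRNA) had 25.7 and 40.1 at 0 min and 914 and 835 at 8 min (log2 change 4.72 ± 0.29 (SE), adjusted p = 0.0018). The hairpin rows of Mir17, Mir18, Mir19a, Mir20a and Mir19b-1 begin 85 to 719 bases before the annotated start of the host, and that of Mir92-1 begins 37 bases after it. Mir92-1 had 0.757 and 1.75 at 0 min and 70.8 and 78.1 at 8 min (log2 change 5.10 ± 0.40 (SE), adjusted p = 0.0018). Mir19b-1 had 0.126 and 0.875 at 0 min and 43 and 53.8 at 8 min (log2 change 5.08 ± 0.44 (SE), adjusted p = 0.0018), and Mir18 had 1.77 and 0.5 at 0 min and 41.9 and 41 at 8 min (log2 change 4.38 ± 0.45 (SE), adjusted p = 0.002). The rows of Mir17 and Mir20a were at 0.126 and 0 at 0 min and 20.7 and 25.7 at 8 min and at 0.757 and 0 at 0 min and 24.4 and 27.5 at 8 min. All 6 hairpins were near 0 at 0 min and at 20.7 or more in both libraries at 8 min, whatever their seed (Mir18, Mir19a and Mir20a were chosen after their values were seen). Without 8 min library 1 or 2 these hairpin rows fell under the filter, and the call of the host held. Reads on a hairpin row may belong to the primary transcript, which was not told apart from the mature RNA. Over all 50 rows named for miRNAs or their hosts, 26 were called higher and 7 lower. H19, the host of Mir675, had 1411 and 970.5 at 0 min and 161 and 261 at 8 min and fell (log2 change -2.51 ± 0.34 (SE), adjusted p = 0.0034), and Mir675 fell by 2.42.

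Among 26 lncRNAs, 10 were higher (38.5%) and 5 lower (19.2%), near the 33.3% and 22.9% of all rows. Tug1 had 324 and 225 at 0 min and 1331 and 1243 at 8 min (log2 change 2.25 ± 0.27 (SE), adjusted p = 0.0026), and Lockd, next to Cdkn1b, had 6.81 and 8.5 at 0 min and 62.4 and 57.6 at 8 min (log2 change 2.82 ± 0.34 (SE), adjusted p = 0.0027). Firre, an X-linked nuclear organiser of 72.2 kb, had 1391 and 1982 at 0 min and 482 and 531 at 8 min and fell (log2 change -1.71 ± 0.27 (SE), adjusted p = 0.0051). Significance was lost for Firre with each 8 min library left out in turn (adjusted p from 0.054 to 0.089).

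Repeat types gave 127 higher (13.8%) and 37 lower (4.02%) of 920, against 34.3% and 23.8% of gene rows. RLTR13A2, a long terminal repeat, had 90.2 and 169 at 0 min and 1083 and 1165 at 8 min (log2 change 3.17 ± 0.34 (SE), adjusted p = 0.0022). RLTR20B4_MM had 86 and 156 at 0 min and 519.6 and 592 at 8 min (log2 change 2.25 ± 0.34 (SE), adjusted p = 0.0044), and the internal part MMERVK10C-int had 3068 and 5483 at 0 min and 18411 and 17444 at 8 min (log2 change 2.13 ± 0.43 (SE), adjusted p = 0.01). ERVB3_1-LTR_MM and Charlie15b rose by 2.06 and 2.02. FordPrefect, given above, fell most of the repeat types, by 3.57 on the log2 scale. Among the 41 structural RNA types, which are not in the count of 920, U13, U8 and U5 fell. At 0 min the rows U13 and U8 held nearly the same numbers of reads as Snord13 and Snord118, given above. In library 1 these were 22701 for U13 and 22631 for Snord13, and 4737 for U8 and 4724 for Snord118. The falls of U13 and U8 are therefore not separate from those. SSU-rRNA_Hsa, ribosomal RNA, had 10047 and 10367 at 0 min and 1254 and 1031 at 8 min (log2 change -3.17 ± 0.28 (SE), adjusted p = 0.0018). Of 8 MERVL and MT2 types, 2 rose, of 40 IAP and ETn types 2 rose and 7 fell, and of 6 L1Md types 1 rose, L1Md_Gf with 858 and 1227 at 0 min and 2928 and 3024 at 8 min (log2 change 1.54 ± 0.28 (SE), adjusted p = 0.0079). The call was lost for MMERVK10C-int and L1Md_Gf with each 8 min library left out in turn (adjusted p from 0.12 to 0.15). The 2 MT2 types, MT2C_Mm and MT2B2, lost the call with each 8 min library left out (adjusted p from 0.29 to 0.4) and in DESeq2 (adjusted p = 0.094 and 0.059). Of the IAP and ETn calls, 0 of 2 higher and 1 of 7 lower held in all 4 fits with a library left out. Repeat types pool many copies, also within introns, and reads of a repeat within a gene were not told apart from those of the gene.

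Whether release differed with 4OHT was asked by the difference of the 2 changes, (8 against 0 min with 4OHT) less (8 against 0 min with DMSO). No row of 20460 passed in limma (adjusted p under 0.05) and none in edgeR without regard to the column number, while 1192 (5.83%) had an unadjusted p under 0.05 in limma and 1228 (6%) in edgeR. DESeq2 called 144 (0.704%), 32 larger and 112 smaller with 4OHT, and gave 1576 (7.7%) at an unadjusted p under 0.05. With the column number as a block limma called 1 row larger and 4 smaller. Deviations of like-numbered 0 min libraries of the 2 treatments had a correlation of 0.4902, and those at 8 min 0.0919. A p over the threshold does not show that the changes were alike, and the standard errors of the difference lay at 0.31 to 0.73 for the 12 genes below. Slc1a4, of smallest p, had 44.3 and 45.1 at 0 min and 447 and 406 at 8 min with 4OHT, and 71.4 and 80.0, then 124 and 104, with DMSO. Its changes were 3.22 and 0.58, a difference of 2.64 ± 0.31 (SE, limma adjusted p = 0.32). Stc2, a secreted stress response protein, had changes of 2.83 with 4OHT and -0.25 with DMSO. Scd1 had 395 and 221 at 0 min with 4OHT and 394 and 293 with DMSO, then 17.7 and 19.6 against 203 and 224 at 8 min. Its difference was -3.25 ± 0.43 (SE, limma adjusted p = 0.40). The 4 libraries at 0 min thus overlapped in Scd1 and the 8 min libraries with 4OHT lay below those with DMSO. Scd2, a related desaturase, had changes of -2.82 and -0.62. Pcdh7, a protocadherin gene of over 400 kb, had changes of -1.12 with 4OHT and 1.61 with DMSO. Tbx4 and Mical2 had changes of 1.47 and 1.44 with 4OHT and of -1.51 and -1.18 with DMSO. The limma adjusted p of the difference was 0.63 and 0.74. Their libraries of 0 and 8 min did not overlap on either treatment, but both genes were chosen by the p of the difference. Their values were low, at most 33.5 in any library.

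**Figure D5:**
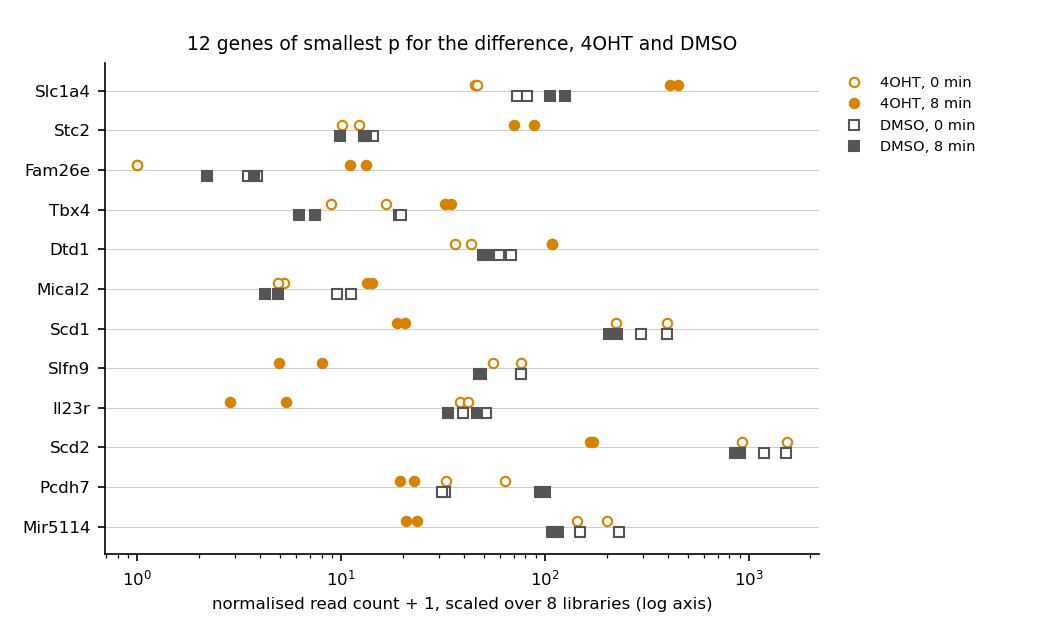
Normalised read count plus 1, scaled over 8 libraries (log axis), of the 12 genes of smallest p for the difference between the changes with 4OHT (circles) and with DMSO (squares), at 0 min (open) and 8 min (filled), 2 libraries each. In Slc1a4 the 8 min libraries with 4OHT, 447 and 406, lie to the right of all others, and in Scd1 they lie to the left, at 17.7 and 19.6.

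List medians of the 2 treatments, on the scale of all 8 libraries, are given side by side, where all rows had 0.27 with 4OHT and 0.22 with DMSO. They were 1.06 and 1.24 for immediate early genes, 0.97 and 1.03 for pausing and elongation genes, 1.15 and 1.17 for oxidative phosphorylation and 1.45 and 1.47 for p53 targets. For feedback inhibitors they were 1.26 and 0.01, for the integrated stress response 1.28 and 0.71 and for replication histones -1.51 and -0.91. Members of every list were those past the filter in the 4 libraries with 4OHT, in which DMSO libraries had no part. That limit holds for the medians above too, where few rows fell under the filter, such as 5 of 48 immediate early genes. Of 33 rows of the 2-cell-like list, 14 passed the filter and 19 did not. For that list no medians of the treatments are set side by side. The median normalised count of the 14 was 5.42 and 28.1 at 0 min and 35 and 30 at 8 min with 4OHT, so 0 min library 1 was low and library 2 lay near those of 8 min. Zscan4a, of this list, had 4.02 and 13 at 0 min and 28.3 and 24.2 at 8 min with 4OHT, against 5.87 and 0.238, then 2.42 and 2.7, with DMSO. Copies of Zscan4 are near identical, so reads may be shared among them. The 2-cell-like list gave 1 call of 14, Zscan4a (log2 change 1.75 ± 0.56 (SE), adjusted p = 0.041). Calls did not hold for Zscan4a with each 8 min library left out in turn (adjusted p from 0.099 to 0.17). It was not called by edgeR or DESeq2 (adjusted p = 0.09 and 0.057). The difference between the treatments was not tested for any list.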

How the data were processed

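RNA was measured in 8 libraries of mouse embryonic stem cells, 4 given 4sU for 8 min after DRB washout and 4 labelled 0 min, of which the 4 with 4OHT enter the main comparison. Per the submitters' processing notes, reads were handled with bcl2fastq, STAR 2.7 and Bowtie2 against mm10, in no stated order. The counter, its strand setting and its treatment of reads with several places are not given in the sources used here. The deposited table holds a signal per gene or repeat type, which per its values is whole reads divided by 1 number per library by the authors. At least 99.9923% of the values of the 4 libraries came out whole within 0.01 when multiplied by that number. What it stands for is not given, so the 4 columns were rescaled here by the median ratio. The ratio was taken over rows above 0 in all 4 columns, 27497 of the 38911 that are not spike-ins. Columns were matched to groups by treatment and time only, and a column name without 4OHT was taken as DMSO.

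Rows with a value of at least 10 in 2 or more libraries were tested with limma 3.58.1 (R 4.3.3, trended empirical Bayes) on log2(value + 1), with Benjamini-Hochberg adjustment. Every adjusted p in the text is from this model unless another tool is named, and a fold on this scale understates the change of low rows. With 2 libraries a group, and no label naming separate cultures, the spread behind each p-value is that of these libraries and may be technical. The difference between 4OHT and DMSO was an interaction term over 8 libraries, and was also tested on the recovered reads with edgeR 4.0.16 and DESeq2 1.42.0.

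Named genes are, each way, the 12 of largest change among called rows with a mean of 100 or more at the higher time and no overlap, without gene models. To these were added the 5 rows of highest mean at each time, 5 repeat or structural types each way, Ythdc1, up to 4 called members of each list each way, and 6 genes each way for the difference. The genes compared, the lists and the tests were chosen with earlier results of these data known. Numbers 1 and 2 of the columns were not used as pairs in the comparison of times, where deviations of like-numbered libraries with 4OHT had a correlation of 0.0141. For the difference between treatments it was 0.4902 at 0 min and 0.0919 at 8 min, and the counts with the number as a block are given beside those without it. Of 37794 genes, 27329 matched an annotated symbol (GRCm38.p6) and 631 an older one.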

Additional observations from a re-analysis of the deposited data

How the results depend on the processing

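Against 6748 higher and 4651 lower rows, the deposited scale gave 13630 and 140, spike-in scaling 7052 and 28, and a minimum of 100 gave 4253 and 1879. With each library left out in turn the counts ran from 2469 to 9687 higher and from 1656 to 5605 lower. The low ends came without 8 min library 1 and the high ends without 0 min library 2. A lone library is then assumed to vary like the other group. A replicate block by column number gave 7047 and 4999, and the numbers were not shown to pair libraries of the 2 times. Other pseudocounts, no filter, no trend, robust estimation, quantile normalisation, edgeR, DESeq2 and the spread of all 8 libraries stayed within 1.5 times of the main counts. For the difference between 4OHT and DMSO, 0 rows each way became 32 and 112 with DESeq2, 9 and 0 on the deposited scale and 1 and 4 with the replicate block. It stayed at 0 with the other settings run, each library left out included. The cause of these moves was not tested.

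By length, medians less that of all rows were 0.21 under 10 kb (-0.10 to 0.42 with a library left out, the lowest without 0 min library 2). From 10 to 30 kb the value was 0.55 (0.36 to 0.64), with 0.68 at a minimum of 100 and 0.42 without a filter. From 30 to 100 kb it was 0.24 (0.14 to 0.37), with 0.30 without a filter. Above 100 kb it was -0.44 (-0.71 to -0.28), with -0.75 at a minimum of 100. The cause was not tested. Of the lists, 19 had a median above that of all rows, with 17 to 22 over the alternatives. Single named rows kept direction and call in 3354 of the comparisons with an alternative, lost the call in 513, gained it in 42 and turned in none. On the deposited and spike-in scales these rows were compared by their change less the median of all rows. A turn of direction on those scales themselves was therefore not counted. Of the 225 rows named for 8 against 0 min, 151 kept the call and 74 lost it on the deposited scale. With spike-in scaling 19 kept it and 206 lost it. Exonic length was not run. The 0 min libraries had fewer reads and agreed less, and rows under the filter were not tested.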
